A study of Gallus gallus with 20 samples.

Results

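The apolipoprotein genes APOA1, APOC3, APOA4 and APOA5, neighbours on chicken chromosome 24, were followed through the livers of laying hens. The 4 genes were taken by symbol from a table of 21749 genes, and each passed the filter of at least 1 TPM (transcripts per 1000000, a level per transcript length) in at least 4 libraries, as did 12808 genes in all. The libraries came from Guangxi Ma chickens, a local breed, and measured mRNA of whole liver. The hens were 32, 50 or 72 weeks old, and those of 50 and 72 weeks were divided into high and low layers, which gave 5 groups of 4 libraries. For the youngest hens the labels disagree on whether a laying class applies, high in one field and none in the series' design, and their group is named here by age. The labels give no treatment or genotype that sets groups apart. The series set out to relate laying rate to the liver's synthesis of yolk precursors.

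Apolipoproteins coat lipid particles in blood and steer their enzymes and receptors. The 4 genes encode exchangeable apolipoproteins, which can move between particles, and they also lie next to each other in mammals. APOA1 is the main protein of high-density lipoprotein (HDL) and activates LCAT, the enzyme that esterifies its cholesterol. In mammals APOC3 inhibits lipoprotein lipase and slows the clearance of triglyceride-rich particles, APOA5 promotes that clearance, and APOA4 is known from lipid absorption and HDL. In the laying hen the liver also exports yolk lipoprotein, built on APOB and APOV1, and vitellogenin under estrogen.

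On GRCg7b the 4 genes occupy 8114 bases of chromosome 24 in the order APOA5 (RefSeq gene 419802, 5159768 to 5161751), APOA4 (395780, 5162912 to 5164404), APOC3 (100859721, 5165137 to 5165866) and APOA1 (396536, 5166355 to 5167881). All are annotated as protein coding. The gaps between them are 1160 bases from APOA5 to APOA4, 732 from APOA4 to APOC3 and 488 from APOC3 to APOA1. Upstream in coordinates ZPR1, a zinc finger protein gene, ends 144 bases before APOA5, and after APOA1 the kinase gene SIK3 starts after 1332 bases. A microRNA gene, MIR12250, is annotated inside the span of APOC3 and was not analysed here.

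Hepatocyte markers were high throughout. All 10 were in the table and summed to between 67815 and 159693 TPM per library. Since mammalian intestine makes APOA1 and APOA4 as well, enterocyte markers were looked up: 9 of 12 were in the table, and they summed to between 5.31 and 13.9 TPM, with FABP2, the intestinal fatty acid binding protein, between 0 and 0.321 TPM. Above 0 in every library were FABP6 (1.79 to 6.04 TPM), VIL1 (0.442 to 7.66), CDH17 (0.839 to 3.14) and SLC5A1 (0.315 to 1.46). Across tested genes, 3 libraries stood somewhat apart: replicate 1 of week 50 high, replicate 3 of week 50 low and replicate 2 of week 72 low had median Spearman correlations with the rest of 0.928, 0.923 and 0.923, and the other 17 had 0.934 to 0.953. In bulk liver, fewer cells of a type and less RNA per cell cannot be told apart.

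APOA1 was among the most abundant transcripts of the liver. It ranged from 2658 to 29775 TPM with a median of 9481, and its median rank among all genes of a library was 9, with 1 as its highest place. At week 32 the libraries had 2658, 9465, 3604 and 6181 TPM. Week 50 high libraries had 7705, 11521, 9079 and 4532 TPM, and week 50 low libraries 11071, 7826, 9637 and 20473 TPM. At week 72 the high layers had 6019, 11613, 10575 and 9498 TPM, and the low layers 20784, 29775, 9185 and 17078 TPM. In the week 72 low group 3 libraries lay above all 4 week 72 high ones, while replicate 3 lay among them. By mean the order was week 32 (5477 ± 3047 TPM), week 50 high (8209 ± 2916), week 72 high (9426 ± 2430), week 50 low (12252 ± 5639) and week 72 low (19206 ± 8547; SD, n = 4 each), and each neighbouring pair in this order overlapped.

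APOC3, the shortest of the genes, had a median of 3301 TPM and ranged from 981 to 8462 TPM. Week 32 libraries held 981, 5621, 1563 and 3016 TPM. Libraries of week 50 high held 1923, 4388, 2911 and 1425 TPM, and those of week 50 low 4029, 3017, 2092 and 8462 TPM. The week 72 high libraries lay closest together at 3114, 2966, 3857 and 4402 TPM, and the week 72 low ones held 4428, 6585, 3488 and 5764 TPM. By mean the order was week 50 high (2662 ± 1306 TPM), week 32 (2795 ± 2069), week 72 high (3585 ± 670), week 50 low (4400 ± 2821) and week 72 low (5066 ± 1377; SD, n = 4), with overlap between all neighbours.

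APOA4 varied most of the 4 genes between libraries of the same group. Its level was 249, 2934, 1433 and 1191 TPM at week 32, an 11.8-fold range within a group. It was 2038, 1879, 1482 and 418 TPM in week 50 high layers and 1806, 2777, 560 and 4904 TPM in week 50 low layers. Week 72 high layers gave 1768, 925, 1037 and 3699 TPM, and week 72 low layers 892, 3108, 863 and 1180 TPM. Group means lay between 1452 ± 1112 TPM at week 32 and 2511 ± 1835 TPM in week 50 low, with 1454 ± 729 in week 50 high, 1511 ± 1075 in week 72 low and 1857 ± 1284 in week 72 high, and no neighbours in this order stood apart.

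APOA5 was the least abundant member, at 77.4 to 376 TPM with a median of 168, and its median rank was 567. Week 32 libraries had 77.4, 135, 154 and 137 TPM. All 4 week 50 high libraries lay above them, with 201, 157, 253 and 159 TPM. Week 50 low layers had 150, 257, 376 and 109 TPM, week 72 high layers 178, 292, 129 and 256 TPM, and week 72 low layers 284, 297, 236 and 144 TPM. Group means were 126 ± 33.3 TPM at week 32, 192 ± 45.5 in week 50 high, 214 ± 73.7 in week 72 high, 223 ± 119 in week 50 low and 240 ± 69.0 in week 72 low (SD, n = 4). With TPM as deposited, week 32 (highest 154 TPM) and week 50 high (lowest 157 TPM) were the sole neighbours in this order without overlap. In that comparison 7.89% of all tested genes did not overlap. The table's totals differ between libraries, and overlap under other scalings was not tested.

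**Figure D1:**
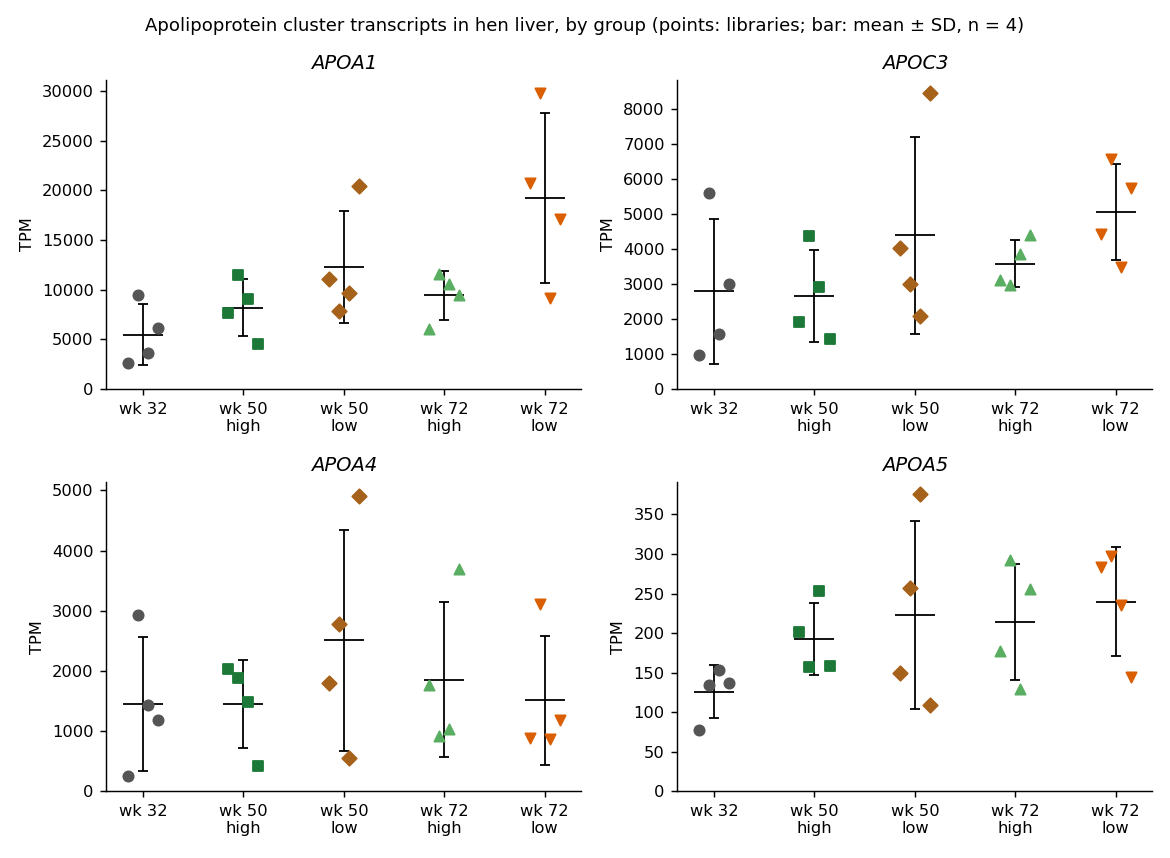
Level in TPM (vertical axes from 0) of APOA1, APOC3, APOA4 and APOA5 in the 5 groups, with 1 point per library and bars for the mean ± SD of 4 libraries. APOA1 reached 17078 to 29775 TPM in 3 of the 4 week 72 low libraries, and APOA4 spread over 249 to 2934 TPM within week 32 alone.

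The spread within groups was wide for the whole cluster. On the log2(TPM + 1) scale the within-group SD was 0.64 for APOA1, 0.73 for APOC3, 1.16 for APOA4 and 0.53 for APOA5, where the median of the 12808 tested genes was 0.36. Of all tested genes, 98.3% had a smaller within-group SD than APOA4, 91.5% than APOC3, 87.3% than APOA1 and 79.1% than APOA5. Among the 987 genes with a mean of at least 100 TPM these shares were 96.0%, 88.2%, 84.1% and 76.3%. Week 32 replicate 1 had the lowest value of all 20 libraries for each of the 4 genes.

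One question is whether the genes of the cluster vary together from library to library. APOA1 and APOC3 did: over 20 libraries log2(TPM + 1) correlated with Pearson r = 0.87 and Spearman rho = 0.79 (permutation test, adjusted p = 6e-05 and 0.00024 over the 6 pairs; the Pearson p of 1e-05 before adjustment is the smallest the permutations can give). Without the 2 libraries farthest from the median of APOA1, r was 0.80. After the group means were removed r was 0.86 and rho 0.85 (adjusted permutation p = 0.00096 and 0.00126), so among libraries of the same group those with more APOA1 tended to hold more APOC3. The ratio of APOA1 to APOC3 stayed between 1.68 and 4.69 while APOA1 itself moved over an 11.2-fold range.

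APOC3 and APOA4 also varied together. Their r was 0.72 and rho 0.57 over all libraries (adjusted permutation p = 0.00075 and 0.0275), and 0.51 without week 32 replicate 1 and week 50 low replicate 4. Within groups r was 0.79 and rho 0.72 (adjusted permutation p = 0.00324 and 0.00567), and 0.73 without the 2 farthest libraries.

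APOA1 and APOA4, at the outer ends of this trio, were less firmly tied. Over all libraries r was 0.51 (adjusted permutation p = 0.0423), but rho was 0.28 (adjusted permutation p = 0.415). Without week 32 replicate 1 and week 72 low replicate 2, the libraries farthest from the APOA1 median, r fell to 0.22. Leaving out the most extreme libraries also narrows the range of APOA1, which can by itself lower r. The call over libraries was also lost when any 1 of 8 particular libraries was left out (r = 0.32 to 0.51). Within groups r was 0.63 and rho 0.60 (adjusted permutation p = 0.0279 and 0.0328), and r was 0.58 without the 2 farthest libraries, though leaving out any 1 of 5 particular libraries ended this call (r = 0.53 to 0.58). Without the 3 libraries least like the others, r stayed at 0.50 over libraries and 0.62 within groups, with adjusted permutation p = 0.0829 and 0.0684. The APOA1 to APOA4 ratio was 9.58 to 23.3 in week 72 low and 2.52 to 10.7 at week 32, and it reached 17.2 in week 50 low replicate 3.

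The correlations of APOA5 with the other members did not pass the threshold. Its r was 0.40 with APOA1, 0.12 with APOC3 and 0.12 with APOA4 over all libraries (adjusted permutation p = 0.124, 0.627 and 0.627), and rho was 0.26, -0.06 and -0.02 (adjusted permutation p = 0.415, 0.946 and 0.946). Without the 2 libraries farthest from the other member's median, these r were 0.05, -0.03 and -0.32. Within groups r was 0.03, -0.20 and 0.04 and rho 0.08, -0.18 and 0.05 (adjusted permutation p of at least 0.727). That with APOA1 over libraries passed in 1 alternative, without week 50 low replicate 4 (r = 0.55, adjusted permutation p = 0.0307). That library had the highest APOC3 (8462 TPM) and APOA4 (4904 TPM) of all 20 and the second lowest APOA5, 109 TPM.

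**Figure D2:**
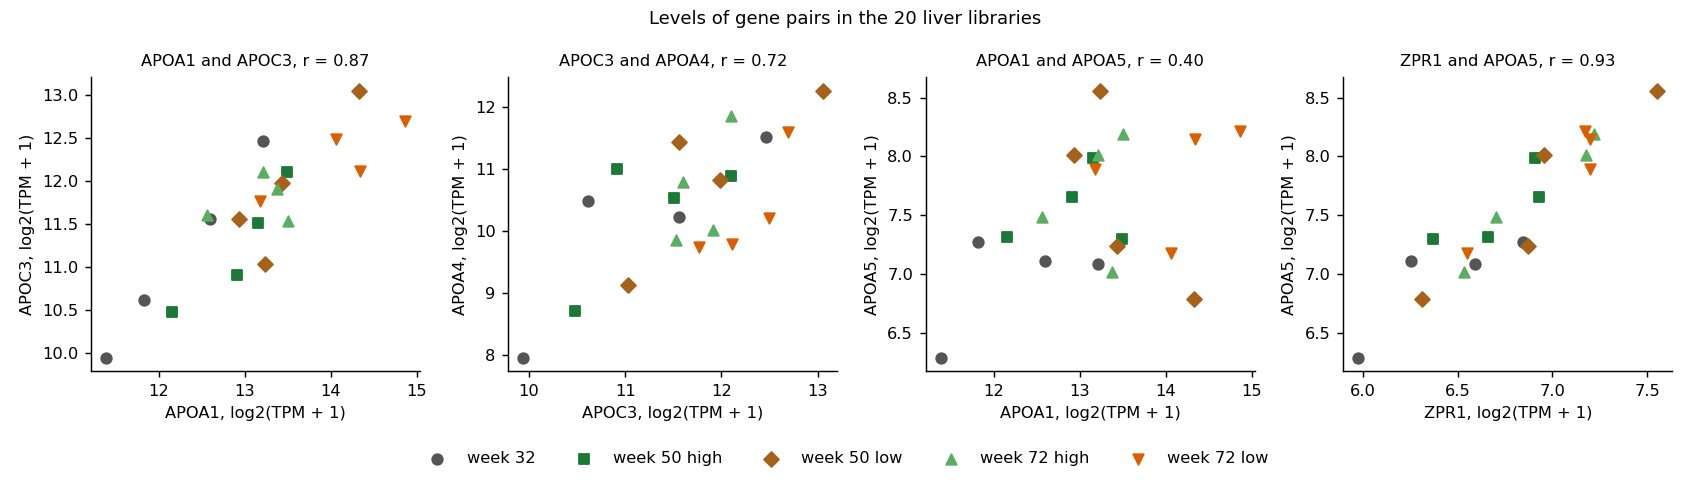
Levels of gene pairs on the log2(TPM + 1) scale, with 1 point per library and symbols for the 5 groups. APOA1 with APOC3 (r = 0.87) and ZPR1 with APOA5 (r = 0.93) form narrow bands, APOC3 with APOA4 (r = 0.72) a wider one, and APOA1 with APOA5 (r = 0.40) a cloud.

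Set against the whole transcriptome, each of APOA1 and APOC3 had its highest r with the other among 12807 tested genes. APOA4 ranked 4 by r with APOC3, and APOC3 ranked 3 by r with APOA4. By r with APOA1, APOA4 ranked 176 and APOA5 525, while by r with APOA5, APOA1 ranked 1706, APOA4 6025 and APOC3 6145. These ranks are a description, since all genes share the same 20 libraries.

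APOA5 varied with its neighbour on the other side. ZPR1, a conserved zinc finger protein that binds translation elongation factor, had the highest r with APOA5 of all tested genes, 0.93 over libraries and 0.92 within groups. Leaving out single libraries, leaving out the 3 libraries least like the others, a pseudocount of 0.1 and median-ratio scaling (23 settings) gave 0.91 to 0.95 over libraries and 0.89 to 0.94 within groups. ZPR1 ranged from 61.9 to 187 TPM, and APOA5 exceeded it 1.25-fold to 2.13-fold in every library. Both were lowest in week 32 replicate 1 and highest in week 50 low replicate 3. The positions leave 144 bases between the genes, no source used here gives the strand of the counting, and whether reads of one gene were counted for the other was not tested.

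Beyond ZPR1 the neighbours had low r with the cluster over libraries. The other 7 flanking genes that were tested had r between -0.39 and 0.06 with APOA1, -0.36 and 0.09 with APOC3, -0.12 and 0.09 with APOA4, and -0.22 and 0.46 with APOA5. SIK3, the nearest flanking gene of APOA1, had r = -0.09 with it, and BUD13, a splicing factor gene beyond ZPR1, had r = 0.03 with APOA5. Within groups SIDT2 had r = 0.52 with APOA5, and PCSK7, a proprotein convertase gene, and PAFAH1B2, a subunit gene of platelet-activating factor acetylhydrolase, reached 0.63 and 0.58. For scale, 5123 pairs of adjacent tested genes with a gap under 5000 bases had a median r of 0.35. Among them ZPR1 and APOA5 ranked 19, APOC3 and APOA1 70, APOA4 and APOC3 456, and APOA5 and APOA4 3886, the last with r = 0.12.

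**Figure D3:**
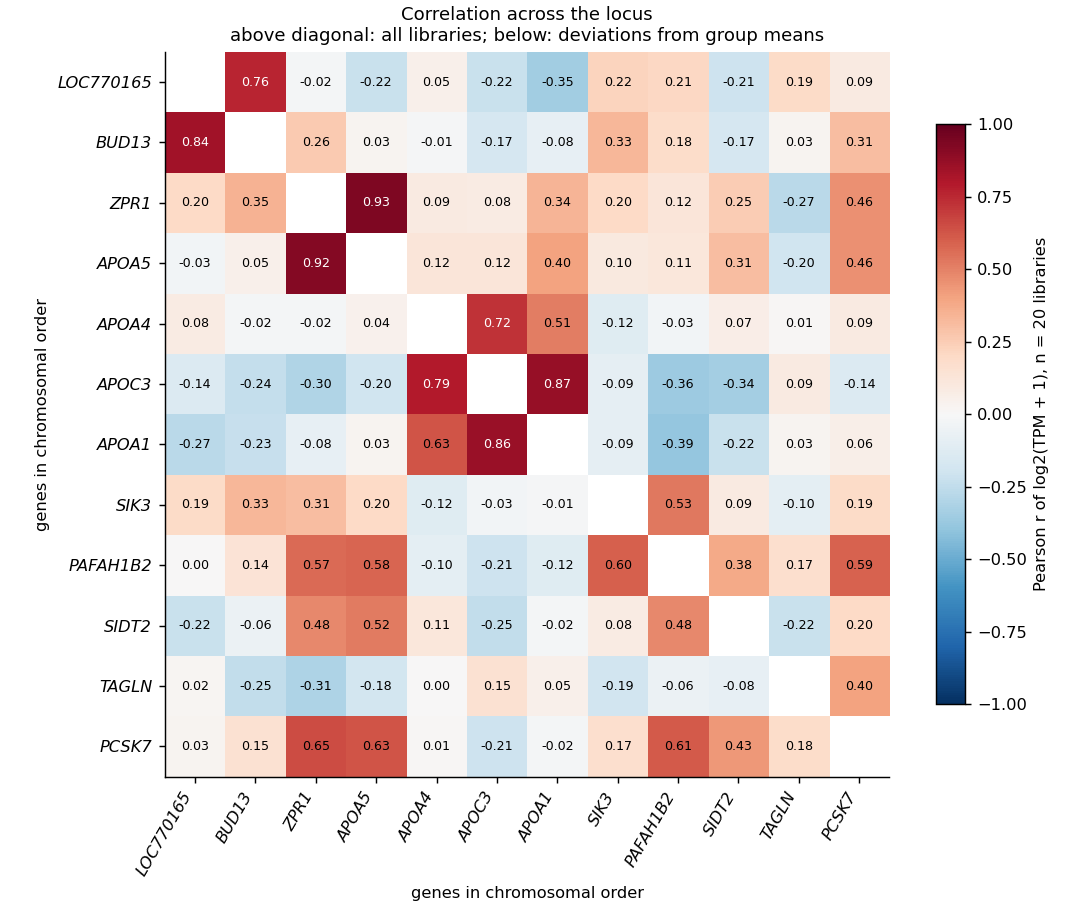
Pearson r of log2(TPM + 1) between the tested genes at the locus in chromosomal order, over 20 libraries above the diagonal and for deviations from group means below it. One block joins APOA4, APOC3 and APOA1 (r = 0.51 to 0.87 above the diagonal), ZPR1 and APOA5 form another (0.93), and APOA5 with APOA4 has 0.12.

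Away from the locus, the genes most like each member were shared in part between members. After APOC3, APOA1 was closest to HOGA1, MRPS14 and RMDN1, each with r = 0.75. APOC3 was closest to the uncharacterised LOC121111488 (0.76) and LOC121108844 (0.75) and to CGREF1 (0.71), and CGREF1 also led for APOA4 (0.77), followed by LOC770996 (0.74) and BBIP1 (0.72). Within groups LOC121108844 and HTATIP2 came first and second outside the cluster for both APOA1 (0.80 and 0.79) and APOC3 (0.83 and 0.82). SLC2A2, the liver glucose transporter gene, came second for APOA4 within groups (0.83). APOA5 was closest, after ZPR1, to C2CD2 (0.79) and GARS (0.76), a tRNA synthetase gene. After ZPR1 within groups came LOC121107554 and FAAH, a fatty acid amide hydrolase gene (0.88 each). HOGA1, CGREF1, C2CD2, LOC121111488 and LOC770996 had means of 2.09 to 4.61 TPM, a low level at which log2(TPM + 1) understates changes.

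The next question was whether laying class went with the cluster's levels. At week 72 APOA1 was 1.93-fold lower in high than in low layers (log2 difference -0.95 ± 0.43, SE), which did not pass over all genes (limma adjusted p = 0.929; exact permutation p = 0.114). APOC3 differed by -0.48 ± 0.48, APOA4 by 0.29 ± 0.74 and APOA5 by -0.18 ± 0.35, with limma adjusted p = 1 for each. No member (0 of 4) was called, where 0.00781% of all tested genes were, and 1 of 4 had an unadjusted p under 0.05, against 5.27% of all tested genes. No member (0 of 4) separated the groups without overlap, as 2.92% of all tested genes did. Without week 72 low replicate 3 the APOA1 difference was -1.26 (limma adjusted p = 0.334), and without replicate 2 of that group, or without the 3 libraries that stood apart, it was -0.70 (limma adjusted p = 0.836 and 0.745).

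At week 50 all 4 members had negative high minus low differences, while 59.8% of all tested genes had positive differences. They were -0.56 ± 0.43 (SE) for APOA1, -0.65 ± 0.48 for APOC3, -0.63 ± 0.74 for APOA4 and -0.08 ± 0.35 for APOA5, the last turning to 0.19 without the 3 libraries that stood apart. The limma adjusted p was 1 for each, 0 of 4 were called against 0% of all tested genes, 0 of 4 had an unadjusted p under 0.05 against 2.97%, and 0 of 4 had groups without overlap against 1.78%. Without week 50 low replicate 4, which held the highest APOC3 and APOA4 of all libraries, the differences were -0.28 for APOA1, -0.27 for APOC3 and -0.18 for APOA4. Without week 50 low replicate 3 they were -0.64, -0.95 and -1.23, and without the 3 libraries that stood apart APOA4 was at -1.47. With any 1 library left out they ran from -0.75 to -0.28 for APOA1, -0.95 to -0.27 for APOC3 and -1.23 to -0.11 for APOA4.

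Averaged over both ages, the high minus low difference was -0.75 ± 0.31 for APOA1, -0.57 ± 0.34 for APOC3, -0.17 ± 0.52 for APOA4 and -0.13 ± 0.25 for APOA5. The limma adjusted p was 0.69 for APOA1 and at least 0.853 for the others. Here 0 of 4 members were called (0.00781% of all tested genes), and APOA1 alone had an unadjusted p under 0.05 (6.43% of all tested genes). The change of the laying difference from week 50 to week 72 was -0.39 ± 0.61 for APOA1, 0.18 ± 0.68 for APOC3, 0.92 ± 1.04 for APOA4 and -0.10 ± 0.50 for APOA5, with limma adjusted p = 1 for each, 0 of 4 called (0% of all tested genes) and 0 of 4 at an unadjusted p under 0.05 (2.37%).

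In the later groups the members had higher log2 means than at week 32, though no difference passed over all genes. With all libraries and TPM as deposited, all 4 differences were positive in each of the 4 later groups. Of all tested genes, 69.1% were positive in week 50 high, 62.3% in week 50 low, 56.6% in week 72 high and 50.2% in week 72 low. APOC3 in week 50 high was -0.07 under median-ratio scaling, and APOA4, without the 3 libraries that stood apart, was -0.01 in week 50 high and came to -0.13 for week 72 low. Without week 32 replicate 1, the lowest library for every member, APOA4 was -0.46 in week 50 high, -0.11 in week 72 high and -0.40 in week 72 low, and APOC3 was -0.29 in week 50 high. APOC3 in week 50 high was also -0.07 without week 32 replicate 3 and -0.18 without week 50 high replicate 2, and APOA4 was -0.01 in week 50 high without its replicate 1 and -0.13 in week 72 low without its replicate 2. These comparisons share the week 32 libraries. Low layers differ from week 32 in age and laying class together, and these cannot be told apart. The largest was APOA1 in week 72 low, 3.63-fold above week 32 (1.86 ± 0.43), ranked 21 of 12808 genes by p but not called (limma adjusted p = 0.232; exact permutation p = 0.0571). For week 72 low, APOC3 differed by 1.12 ± 0.48 and APOA5 by 0.92 ± 0.35, with limma adjusted p = 0.579 and 0.53, and APOA4 by 0.29 ± 0.74. Here 0 of 4 were called (0% of all tested genes) and 3 of 4 had an unadjusted p under 0.05, against 7.69% of all tested genes, and 0 of 4 had groups without overlap, against 3.71%. Without week 72 low replicate 3, APOA1 passed at 2.17 (limma adjusted p = 0.0256), and over all alternatives its adjusted p ran from 0.0256 to 0.593.

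In the other later groups the differences of APOA1, APOC3 and APOA5 from week 32 were smaller than in week 72 low, while APOA4 was higher by 0.87 in week 50 low and 0.58 in week 72 high. For APOA1 they were 1.23 ± 0.43 in week 50 low, 0.91 ± 0.43 in week 72 high and 0.68 ± 0.43 in week 50 high (limma adjusted p = 0.443, 0.941 and 0.615). For APOA5 they were 0.71 ± 0.35, 0.74 ± 0.35 and 0.63 ± 0.35 (limma adjusted p = 0.569, 0.941 and 0.561). With TPM as deposited, the week 50 high libraries lay above week 32 without overlap for APOA5, where 7.89% of all tested genes did not overlap in that comparison. It was 1 of 32 exact tests (8 pairs of groups in each of 4 genes), with the smallest p that an exact permutation test of 4 against 4 can give. In week 72 high and week 50 low 0 of 4 members lay apart from week 32, against 4.18% and 4.34% of all tested genes. APOC3 lay between 0.11 ± 0.48 and 0.76 ± 0.48 and APOA4 between 0.23 ± 0.74 and 0.87 ± 0.74. No member was called (0 of 4 each) in week 50 high, week 72 high and week 50 low, against 0%, 0.00781% and 0% of all tested genes, and 0, 2 and 1 of 4 had an unadjusted p under 0.05, against 10%, 5.22% and 8.91%. The median of all tested genes in week 50 high minus week 32 was itself 0.13, and -0.02 after median-ratio scaling.

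Marker sums of some other cell types lay apart from week 32 in some later groups and overlapped it in the rest. The 6 adipocyte markers summed to 42 to 115 TPM at week 32, 122 to 456 TPM in week 50 high and 134 to 193 TPM in week 72 high. In the low layers they overlapped week 32, at 105 to 198 TPM at week 50 and 71 to 254 TPM at week 72. The 7 T or NK cell markers summed to 63.8 to 82.4 TPM at week 32 and 132 to 213 TPM in week 50 high. Elsewhere they overlapped week 32, at 50.1 to 265 TPM in week 50 low, 62.9 to 157 in week 72 high and 50.1 to 124 in week 72 low. The 8 stellate and matrix markers summed to 218 to 233 TPM at week 32. They were lower in the low layers, with 139 to 193 TPM at week 50 and 87.6 to 215 TPM at week 72. In the high layers they overlapped week 32, with 105 to 299 TPM at week 50 and 81.1 to 238 TPM at week 72. Their sum had r = -0.36 with APOA1, -0.13 with APOC3, -0.20 with APOA4 and -0.46 with APOA5 over libraries. Of the 7 erythroid markers 5 were in the table, and they summed to 168 to 371 TPM at week 32, 668 to 949 TPM in week 72 high and 792 to 1509 TPM in week 72 low. At week 50 they overlapped week 32, with 192 to 291 TPM in high and 155 to 3799 TPM in low layers. Every marker found in the table was above 0 in some library, and LPL is both an adipocyte marker and a lipase of the lists used here. Over libraries the adipocyte sum had r = 0.40 with APOA1, 0.25 with APOC3, 0.42 with APOA4 and 0.59 with APOA5. For the erythroid sum these r were 0.38, 0.15, -0.24 and 0.44, and for the T or NK cell sum -0.07, -0.26, -0.22 and 0.33. The B or plasma cell sum overlapped week 32 (75.1 to 178 TPM) in each later group but reached 11084 TPM in week 50 low. The part of these cell types in the differences from week 32 was not tested.

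From week 50 to week 72 the high layers differed by 0.24 ± 0.43 in APOA1, 0.54 ± 0.48 in APOC3, 0.35 ± 0.74 in APOA4 and 0.11 ± 0.35 in APOA5. The low layers differed by 0.63 ± 0.43, 0.36 ± 0.48, -0.57 ± 0.74 and 0.21 ± 0.35. No member was called (0 of 4 in each class), against 0% and 0.039% of all tested genes. In each class 0 of 4 had an unadjusted p under 0.05, against 4.59% and 8.53%, and 0 of 4 had groups without overlap, against 3.58% and 3.17%. An F-test over the 5 groups in the same fit gave limma adjusted p = 0.344 for APOA1, 0.679 for APOA5, 0.697 for APOC3 and 0.988 for APOA4, with 0 of 4 called against 0.00781% of all tested genes and 1 of 4, APOA1, at an unadjusted p under 0.05 against 8.88%.

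**Figure D4:**
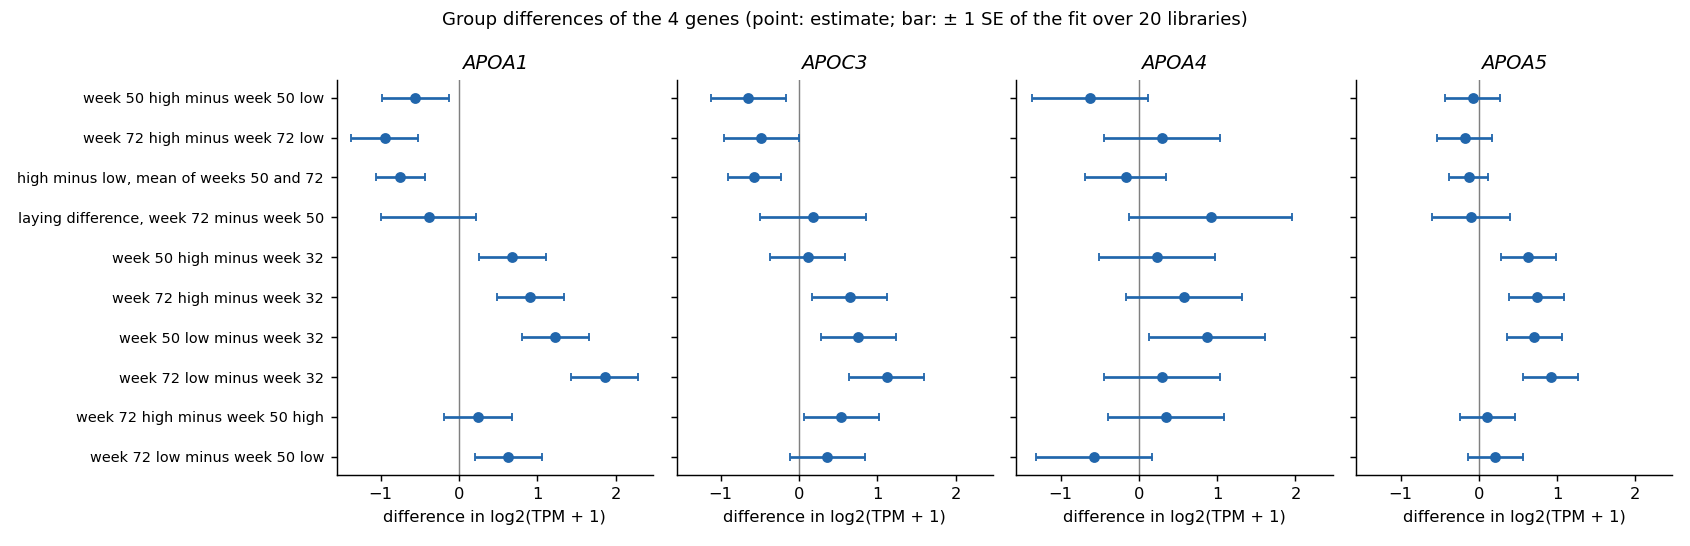
Differences in log2(TPM + 1) for the 10 comparisons (rows) in each of the 4 genes (panels), as estimates ± 1 SE of the fit over 20 libraries. APOA1 has the largest, 1.86 ± 0.43 for week 72 low minus week 32, and 0 of the 40 differences passed over all genes.

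The cluster was also set beside the yolk genes. All 7 of that list were tested, and 0 passed in the 10 comparisons, though 6 had an unadjusted p under 0.05 in week 72 high minus low (5.27% of all tested genes), with VTG1 at 6.88, VTG3 at 5.33, VTG2 at 4.35 and APOV1 at 4.04 on the log2 scale. VTG2, which encodes a main yolk protein, shows how the libraries of that group divide. Week 72 low replicates 1, 2 and 4 held 725, 95.1 and 241 TPM of VTG2, and they held 20784, 29775 and 17078 TPM of APOA1, among the 4 highest APOA1 values of all libraries. Replicate 3, with 13572 TPM of VTG2, held 9185 TPM of APOA1, within the week 72 high range of 6019 to 11613 TPM. APOC3 was 4428, 6585 and 5764 TPM in those 3 libraries against 3488 TPM in replicate 3, APOA5 was 284, 297 and 144 against 236 TPM, and APOA4 was 892, 3108 and 1180 against 863 TPM. As 3 libraries lay far apart in VTG2, its correlation over all 20 is not given. Over the other 17, r with VTG2 was -0.45 for APOA1, -0.21 for APOC3, -0.07 for APOA4 and -0.43 for APOA5, and rho was -0.32, -0.21, -0.22 and -0.10 (permutation test, adjusted over the 4 genes, p = 0.181, 0.556, 0.778 and 0.181 for r and at least 0.57 for rho). Without the 2 libraries farthest from the VTG2 median, r was -0.67, -0.65, -0.55 and 0.08. The r with VTG2 thus depends on those libraries, most for APOC3, APOA4 and APOA5.

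**Figure D5:**
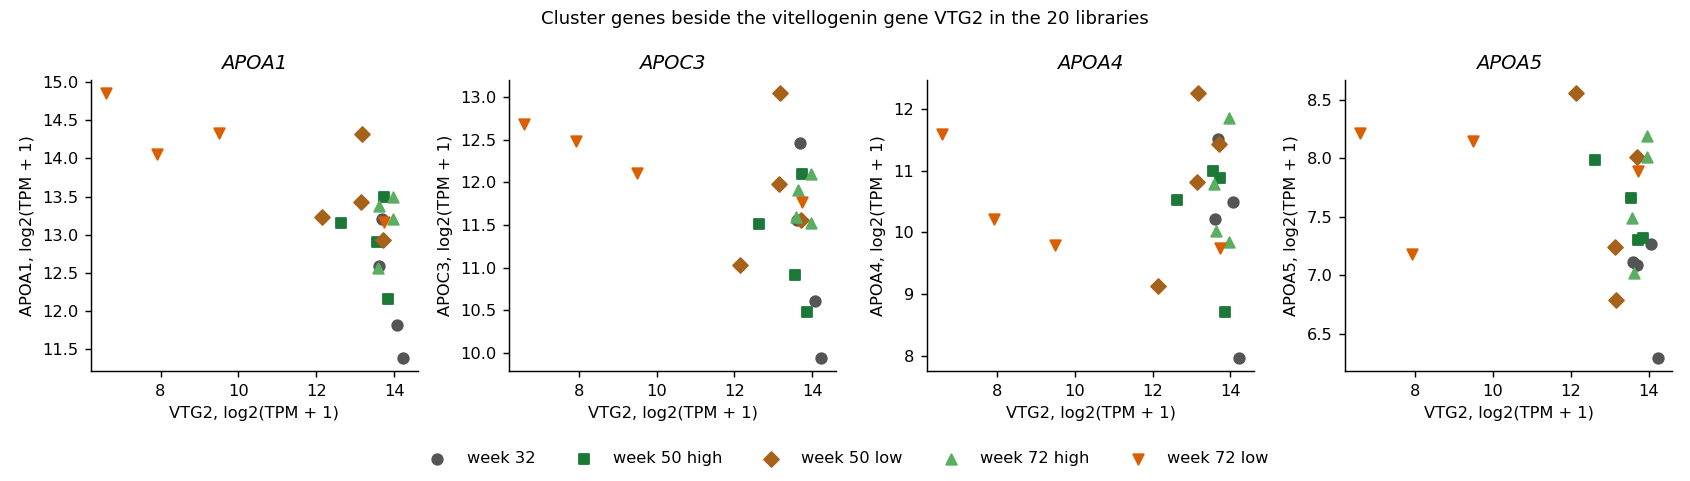
Level of each cluster gene against VTG2, both as log2(TPM + 1), with 1 point per library and symbols for the 5 groups. The 3 week 72 low libraries with 95.1 to 725 TPM of VTG2 stand at the left, with 17078 to 29775 TPM of APOA1.

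The lists of other lipoprotein-related genes gave 0 calls as well. Of the other apolipoprotein and HDL genes, 12 of 22 were tested, and 0 passed in either direction in each of the 10 comparisons, where at an unadjusted p under 0.05 week 72 low minus week 32 had the most (2 higher and 4 lower, against 7.69% of all tested genes). In week 72 high minus low their median was 0.22 against 0.03 for all tested genes, with 3 of 12 higher and 0 lower at an unadjusted p under 0.05, against 5.27% of all tested genes. These were APOV1 at 4.04 ± 0.98, APOF, which modulates lipid transfer in mammals, at 1.15 ± 0.33 and APOB at 1.68 ± 0.72 (limma adjusted p = 0.248, 0.49 and 0.929). APOV1, APOB and MTTP are also in the yolk list above, so APOV1 and APOB are counted in both. The HDL protein gene APOA2 differed by -0.63 ± 0.32 (limma adjusted p = 0.946). APOH, a phospholipid-binding plasma protein gene, had the highest r with APOA1 in this list (0.66), and MTTP, which loads lipid onto APOB, the highest with APOC3 (0.51).

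Of the receptor, lipase and transfer protein genes, 19 of 25 were tested and 0 passed in each of the 10 comparisons, while at an unadjusted p under 0.05 week 72 low had 4 higher and 2 lower than week 32 (7.69% of all tested genes), and 3 higher and 3 lower than week 50 low (8.53%). Their median in week 72 high minus low was 0.00 against 0.03 for all tested genes, and 3 were lower at an unadjusted p under 0.05, where 5.27% of all tested genes passed in either direction. These were CETP, which exchanges lipids between HDL and other particles, at -2.50 ± 0.69, LCAT at -1.36 ± 0.51, and LPL, the lipase that APOC3 restrains in mammals, at -1.71 ± 0.66 (limma adjusted p = 0.444, 0.828 and 0.857). LPL and CETP were low in most libraries, with medians of 0.372 TPM (0 to 20.9) and 2.04 TPM (0.314 to 71.9). AMN, which anchors the endocytic receptor cubilin, LCAT and CETP were the genes of this list most like APOA1, with r = 0.70, 0.69 and 0.65 over libraries and 0.50, 0.50 and 0.33 within groups. Both sets of r include the 3 week 72 low libraries with low VTG2 and high APOA1, and r without them was not computed. LCAT (0.62) and LMF1, a lipase maturation factor gene (0.60), were most like APOA5, and ANGPTL4, an inhibitor of lipoprotein lipase, most like APOA4 (0.59).

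The transcription regulator list, drawn up from factors known or studied as regulators of these promoters or of hepatic lipid genes, had 37 of 40 genes tested, with 0 called in each of the 10 comparisons. At an unadjusted p under 0.05, week 72 low minus week 50 low had the most, 3 higher and 3 lower of 37, against 8.53% of all tested genes. SREBF2, a regulator of sterol synthesis, had the smallest p in week 72 high minus low (1.11 ± 0.28, limma adjusted p = 0.289) and was the 1 of 37 with an unadjusted p under 0.05, against 5.27% of all tested genes, where the list's median was -0.10. It was followed by SREBF1 (-0.57 ± 0.28), ESRRG (-0.51 ± 0.26) and PPARD (-0.51 ± 0.29), with limma adjusted p of 0.929, 0.954 and 0.982. HNF4A, the nuclear receptor best known for driving this cluster in mammals, ranged from 3.53 to 21.2 TPM and had r between -0.17 and 0.18 with the 4 members over libraries. Within groups its r was 0.24 with APOA1, 0.05 with APOC3, 0.16 with APOA4 and 0.41 with APOA5. By size, the first r of each member was -0.65 for APOA4 with HNF4G, 0.60 for APOA5 with FOXO1, -0.53 for APOC3 with NR1H3 and -0.53 for APOA1 with SREBF2. The r of APOA4 with NR1H3 was -0.55, that of APOA5 with CEBPB -0.54 and that of APOC3 with SREBF2 -0.52. These r are the extremes of 37 genes and are given as a description. The 8 endothelial markers, summing to 81.4 to 181 TPM, had r = -0.62 with APOA4, and their part in its variation was not tested.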

How the data were processed

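Liver RNA of 20 libraries, 4 in each of 5 groups, was enriched for mRNA and sequenced, per the labels' protocols. The authors deposited 1 table of TPM (transcripts per 1000000), an abundance divided by transcript length and scaled to a fixed total per library, for 21749 genes. The submitters' processing notes name the build GRCg7b, and no source used here gives the aligner, the counting tool or the annotation release. TPM keeps no read depth, so counting error is unknown and no count model was used. Per library, the table's genes added up to 764047 to 852815 TPM. RefSeq's gene list for GRCg7b held 20888 of the symbols (861 were not found) and gave positions but no strand.

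After a filter (4 or more libraries at 1 TPM or above), 12808 genes entered 1 linear model of log2(TPM + 1) with a mean per group, fitted over the 20 libraries with R 4.3.3 and limma 3.58.1. The moderated tests were two-sided, used a trend of variance on mean level and had 15 residual degrees of freedom. The scale understates changes of low genes. Adjustment was by Benjamini-Hochberg over all genes tested, with 0.05 as the threshold of a call. The code was tested on simulated data. Of the 10 comparisons, 4 concerned laying (high minus low at week 50, at week 72, their mean and their difference), 4 set a later group against week 32, and 2 set week 72 against week 50 in high or in low layers. Single genes were also compared by exact permutation of 4 against 4 libraries. Correlations between members used Pearson r and Spearman rho with 100000 random permutations, of all libraries or within groups for deviations from group means, adjusted over the 6 pairs. Nothing in the labels ties each library to its own hen, and p-values therefore cover only the spread between libraries, which may be technical.

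The members and lists were chosen with earlier results of these data known. Beside the members, the genes named are the 3 with the highest r with each member, the 5 annotated genes on each side of the cluster, up to 4 genes of each list with the smallest p at week 72, and up to 3 of each list with the highest absolute r. Some values that this rule selects are not reported here. Alternatives covered the pseudocount, the filter, 2 other scalings, the libraries in the fit, the trend, weights and the replicate block. The replicate numbers come from the titles, which do not say that they mark shared animals or days. Deviations from group means correlated between same-numbered libraries with a median of 0.0277 in 40 pairs, 14 of them over 0.1, so the numbers were not taken to pair libraries.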

Additional observations from a re-analysis of the deposited data

Results flagged for a closer look

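Of 50 groups of 4 libraries, covering the levels of the 4 genes, ZPR1 and VTG2 and 4 ratios between members, 5 held a library far from the other 3. The limit used flags about 1 in 20 independent groups of normally distributed values. TPM and ratios need not be normal, and the groups share genes and libraries, so the count cannot be set against that rate. APOA4 in week 72 low had 3108 TPM in replicate 2, against 1180 TPM in the next library. ZPR1 in week 72 low had 92.7 TPM in replicate 4, against 143 TPM in the next. VTG2 in week 72 low had 13572 TPM in replicate 3, against 725 TPM. The APOA1 to APOC3 ratio in week 50 low was 4.61 in replicate 3, against 2.75. The APOA1 to APOA5 ratio in week 72 high was 81.9 in replicate 3, against 39.8. The reasons were not tested.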

How the results depend on the processing

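Of the correlations, those of APOA1 with APOC3 and of APOC3 with APOA4 kept their sign and side of the threshold under a pseudocount of 0.1, median-ratio scaling, the 3 libraries left out and each single library left out (r = 0.82 to 0.89 both over libraries and within groups, and 0.61 to 0.77 and 0.72 to 0.84, with 1 library left out). That of APOA1 with APOA4 lost its call without the 3 libraries least like the others (r = 0.50 over libraries and 0.62 within groups). With 1 library left out it ran from 0.32 to 0.59 over libraries, losing its call without week 32 replicates 1 or 4, week 50 high replicates 2, 3 or 4, week 50 low replicates 1 or 4 or week 72 low replicate 2. Within groups it ran from 0.53 to 0.69, losing its call without week 32 replicates 1 or 2, replicate 4 of either week 50 group, or week 72 low replicate 2. The r of APOA5 ran from 0.19 to 0.55 with APOA1, -0.20 to 0.28 with APOC3 and -0.21 to 0.28 with APOA4 over libraries, and from -0.14 to 0.27, -0.46 to 0.03 and -0.20 to 0.35 within groups.

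Member differences were not called in any comparison under any alternative fit, except APOA1 in week 72 low minus week 32 without week 72 low replicate 3 (range 1.57 to 2.18 with 1 library left out). By exact permutation, unadjusted and on TPM as deposited, APOA5 in week 50 high minus week 32 (0.63) reached the threshold. The exact test was not repeated under other scalings. Without the 3 libraries the sign turned for APOA5 in week 50 high minus low (0.19) and in the mean of both ages (0.06), for APOA4 in week 50 high (-0.01) and week 72 low (-0.13) minus week 32, and for APOC3 in week 72 low minus week 50 low (-0.07). It turned with array weights for the change of the laying difference in APOC3 (-0.18) and APOA5 (0.17), and with median-ratio scaling for APOC3 in week 50 high minus week 32 (-0.07). With 1 library left out, high minus low at week 50 ran from -0.37 to 0.22 in APOA5, and at week 72 from -0.12 to 0.71 in APOA4 and -0.41 to 0.04 in APOA5. The mean of both ages ran from -0.47 to 0.09 in APOA4 and -0.28 to 0.02 in APOA5, and the change of the laying difference from -0.20 to 0.47 in APOC3 and -0.40 to 0.19 in APOA5. Week 50 high minus week 32 ran from -0.29 to 0.55 in APOC3 and -0.46 to 0.75 in APOA4, week 72 high minus week 32 from -0.11 to 1.07 in APOA4, and week 72 low minus week 32 from -0.40 to 0.78 in APOA4. Week 72 high minus week 50 high ran from -0.02 to 0.44 in APOA1, -0.17 to 0.61 in APOA4 and -0.06 to 0.33 in APOA5, and week 72 low minus week 50 low from -0.07 to 0.52 in APOA5. The causes were not tested.

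Genes called among all tested moved as well. With a pseudocount of 0.1 there were 19 in week 72 low minus week 50 low, where the fit of the text gave 5, and 0 in week 72 high minus low, the mean of both ages, week 72 high minus week 32 and the F-test, where it gave 1 each. With a pseudocount of 10 the 5 became 0. A filter of 5 TPM gave 13 for that comparison and 0 for the other 4, and no filter gave 0 for it, 0 in week 72 high minus low, 2 for the mean of both ages and 3 in week 72 high minus week 32. Median-ratio scaling gave 10 in week 72 low minus week 50 low, 1 in week 72 low minus week 32 and 3 in the F-test, and rescaling to a fixed total gave 0 in week 72 high minus low. With only the compared groups in the fit there were 0 in week 72 high minus low, the mean of both ages and week 72 low minus week 50 low, 2 in week 72 high and 1 in week 50 low minus week 32, and 6 in week 72 high minus week 50 high. Array weights gave 11 in week 72 high minus low, 79 in week 50 high, 6 in week 50 low and 10 in week 72 low minus week 32, 3 and 50 in week 72 minus week 50 of high and low layers, and 118 in the F-test. Without the 3 libraries there were 0 in week 72 high minus low, the mean of both ages, week 72 low minus week 50 low and the F-test. With 1 library left out the counts ran from 0 to 63 in week 72 high minus low, 0 to 33 in the mean of both ages, 0 to 18 in the change of the laying difference, 1 to 2 in week 72 high, 0 to 3 in week 50 low and 0 to 71 in week 72 low minus week 32, 0 to 1 and 0 to 95 in week 72 minus week 50 of high and low layers, and 0 to 58 in the F-test. The counts of 18, 33, 58, 63, 71 and 95 came without week 72 low replicate 3. With the replicate block, which rests on shared numbers alone, 0 genes were called in week 72 high minus low, the mean of both ages and the F-test and 12 in week 72 low minus week 50 low. The block changed no call of a member, and 6 of 20 libraries correlated best with their own number. TPM gives no read depth, so what depth limits is unknown.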
